A study of Mus musculus with 2 samples.

Results

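The immediate early genes *Fos*, *Fosb*, *Jun*, *Junb*, *Egr1*, *Atf3*, *Ier2*, *Dusp1*, *Nr4a1* and *Klf4* were followed across the cell types of the mouse periosteum, the sheath of connective tissue on the outside of bone. These 10 genes were taken by symbol from the 31253 features of the deposited tables, where each symbol occurred exactly once. Cells carrying the Ai9 reporter were sorted from the femurs and tibias of 8-week-old mice and their mRNA was captured with the BD Rhapsody system in 2 libraries, with 1 for each genotype. The control library came from Prx1 Cre; Ai9/+ mice and the other from Prx1 Cre; Ai9/+; Piezo1 fl/fl mice, called the Piezo1 fl/fl library here. Both genotypes therefore carried the Cre and the reporter, and differed by the floxed alleles of *Piezo1*, a mechanically gated ion channel. Prx1 Cre acts in the limb bud mesenchyme and its descendants, so a deletion is set in the skeletal and connective tissue lineage from before birth, and whether the blood and vessel cells found here carried it was not tested. Both libraries were made by the same protocol of serial digestion with collagenase, dispase II and DNase I, sorting, and thawing before capture. A response to that handling and a signal already present in the bone cannot be told apart in these data.

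Immediate early genes are switched on within minutes of a stimulus, from transcription machinery that is already in place and without the need for new protein. Growth factors, calcium entry, stretch, wounding and cell isolation all act on them, through ERK and serum response factor or through cAMP and CREB, and their mRNAs decay fast. FOS and FOSB pair with JUN and JUNB to form the transcription factor AP-1, and ATF3 is a stress-induced partner of the same bZIP class. EGR1 and KLF4 are zinc finger factors, NR4A1 is an orphan nuclear receptor, and DUSP1 is a phosphatase that switches MAP kinases off again. IER2 is a small nuclear protein of less settled function.

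The promoters of *Fos*, *Nr4a1* and *Dusp1* are shown because *Fos* was the most abundant of the 10 genes and *Nr4a1* and *Dusp1* were highest in different cell types, described further on. Each run holds the 250 bases before the transcription start, 5′ to 3′ on the strand of the gene, from RefSeq on GRCm38.p6. Capitals mark the letters TGACG on either strand (read as CGTCA on the other), which is the core of the binding site of CREB and ATF factors and is contained in the longer palindrome TGACGTCA, and also the letters TATAAA on either strand. The *Fos* window lies on the plus strand at chr12:85473640-85473889, the *Nr4a1* window on the plus strand at chr15:101266596-101266845, and the *Dusp1* window on the minus strand at chr17:26508473-26508722.
Fos: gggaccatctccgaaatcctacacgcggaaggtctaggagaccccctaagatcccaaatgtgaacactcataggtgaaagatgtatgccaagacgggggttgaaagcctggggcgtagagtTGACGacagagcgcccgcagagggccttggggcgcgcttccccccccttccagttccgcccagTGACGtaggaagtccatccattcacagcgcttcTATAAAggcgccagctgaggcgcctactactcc
Nr4a1: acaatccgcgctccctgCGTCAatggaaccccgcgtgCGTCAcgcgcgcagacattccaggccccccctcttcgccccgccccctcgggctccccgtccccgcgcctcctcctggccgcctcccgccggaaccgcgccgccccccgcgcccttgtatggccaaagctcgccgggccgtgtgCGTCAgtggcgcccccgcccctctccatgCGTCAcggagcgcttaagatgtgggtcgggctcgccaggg
Dusp1: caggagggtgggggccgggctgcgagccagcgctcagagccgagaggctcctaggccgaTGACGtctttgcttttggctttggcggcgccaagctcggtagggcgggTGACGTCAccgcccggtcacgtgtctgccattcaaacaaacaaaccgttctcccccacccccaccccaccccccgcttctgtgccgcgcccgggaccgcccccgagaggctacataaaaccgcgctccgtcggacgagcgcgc
In the windows of 300 bases that add the first 50 transcribed bases, TGACG on either strand occurred in 7 of the 8 matched promoters, all but that of *Jun*. It occurred in 20.8% of all 32851 promoter windows of the same length. *Nr4a1* held 4 copies, *Fos* 2, and *Dusp1* held 3, of which 2 overlap in the only TGACGTCA of the set, a sequence found in 1.79% of all windows. No window of the 8 held the strict CArG box CCWWWWWWGG (W is A or T), a site of serum response factor, which was found in 1.63% of all windows. None held TGACTCA on either strand, the AP-1 site, which was in 1709 windows. Looser forms and bases outside these windows were not searched, so whether these genes have such sites elsewhere is not shown. TATAAA was present in the *Fos* and *Junb* windows and in 13.6% of all windows. *Egr1* and *Ier2* are named only.

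Levels are given as CPM, the UMIs of a gene for every 1000000 UMIs of the cell type, after summing the cells. The cells were clustered with the 10 genes and 57 related genes left out, and the clusters were named from marker genes. After filtering, 4418 control cells and 5084 Piezo1 fl/fl cells remained, and 4002 and 4562 of these were not in clusters of blood cells. The study names skeletal progenitor groups SSPC-1 and SSPC-2. Here SSPC-1-like cells were set by *Thbs4*, *Cd200*, *Igfbp6* and related genes, and SSPC-2-like cells by *Tnn*, *Postn*, *Sp7*, *Runx2* and others of the osteoblast path. In the control library the former cluster held 797 cells and the latter 735 cells. Marker lists were scored by the mean log2 ratio of their genes to the median of the other clusters. By this score the control SSPC-1-like cluster also scored for tendon, at 3.56 against 3.44 for SSPC-1. Its name rests on *Egfl6* and *Col8a1* among its leading genes, beside *Cilp2* of the tendon list. In the Piezo1 fl/fl library the cluster with the SSPC-1 markers, 909 cells, had 7 of the 8 markers detected, but *Tnmd* and *Cilp2* of the tendon list and no SSPC-1 marker stood among its leading genes. It was therefore left unnamed and is called the *Chad*-led cluster. *Angptl7*, the study's own marker of SSPC-1, was not in the marker lists used here, and it stood among the leading genes of this cluster, of the control SSPC-1-like cluster and of the tendon-like clusters of both libraries. The SSPC-2-like cluster of that library, 531 cells, also held more osteoblast mRNA, at 12444 CPM for the 7 mature osteoblast markers together, against 4223 CPM in the control cluster. A mature osteoblast-like cluster of 60 cells and a perineurial-like cluster of 33 cells were found only in the control clustering. Neutrophil-like and chondrocyte-like clusters of 88 and 27 cells were found only in the Piezo1 fl/fl clustering. Clustered jointly, *Col2a1*-led cells with *Bglap*, *Ibsp* and *Hapln1* formed a cluster of 46 Piezo1 fl/fl and 67 control cells. Neutrophil-like cells numbered 90 and 29 there. The control fibroblast-like cluster led by *Col2a1* had a mean log2 ratio of 3.97 for fibroblast markers and 3.90 for chondrocyte markers. Its name rests on *Pi16* and *Clec3b* among its leading genes.

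A UMI (unique molecular identifier) marks 1 captured mRNA molecule at its 3′ end, so these levels are not divided by transcript length, and differences in capture between genes were not corrected. The intervals are exact Poisson or exact conditional 95% intervals. They cover counting error only, since there was 1 library per genotype, and no test or p-value can be given. Over all non-blood cells the 10 genes together made up 14051 CPM in the control library and 15369 CPM in the Piezo1 fl/fl library. *Fos* alone was at 4432 CPM in the control library and 5068 CPM in that of Piezo1 fl/fl, which was 31.5% and 33.0% of the summed UMIs of the 10 genes.

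The summed level differed several-fold between cell types of the same library, and pericyte-like cells stood at or beside the top in both. In the control library, perineurial-like cells (22104 CPM, 21406 to 22818) and pericyte-like cells (21426 CPM, 21175 to 21678) were highest, and this pair was not separated by the counting error. They were followed by macrophage-like cells at 16887 CPM and fibroblast-like cells at 16361 CPM. Those named lining-like, tendon-like and SSPC-1-like lay close together, at 14409, 14092 and 13782 CPM, and lining-like and tendon-like cells could not be separated. SSPC-2-like cells had 10038 CPM, endothelial-like cells 7757 CPM and mature osteoblast-like cells 2329 CPM (2203 to 2460). The highest and the lowest of these levels lay 9.49-fold apart (interval 8.91 to 10.1).

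In the Piezo1 fl/fl library, pericyte-like cells were highest at 25878 CPM (25633 to 26126), then macrophage-like cells at 19385 CPM and the *Chad*-led cluster at 17477 CPM. Fibroblast-like cells had 15509 CPM and tendon-like cells 13572 CPM. Endothelial-like cells (11271 CPM) and SSPC-2-like cells (11066 CPM) could not be separated, and chondrocyte-like, lining-like and neutrophil-like cells were lowest, at 10270, 9508 and 7325 CPM. The range from the highest to the lowest type was 3.53-fold (3.41 to 3.66). The lowest type of each library, mature osteoblast-like and neutrophil-like, had no cluster of its own in the other, so these ranges do not span the same types.

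**Figure D1:**
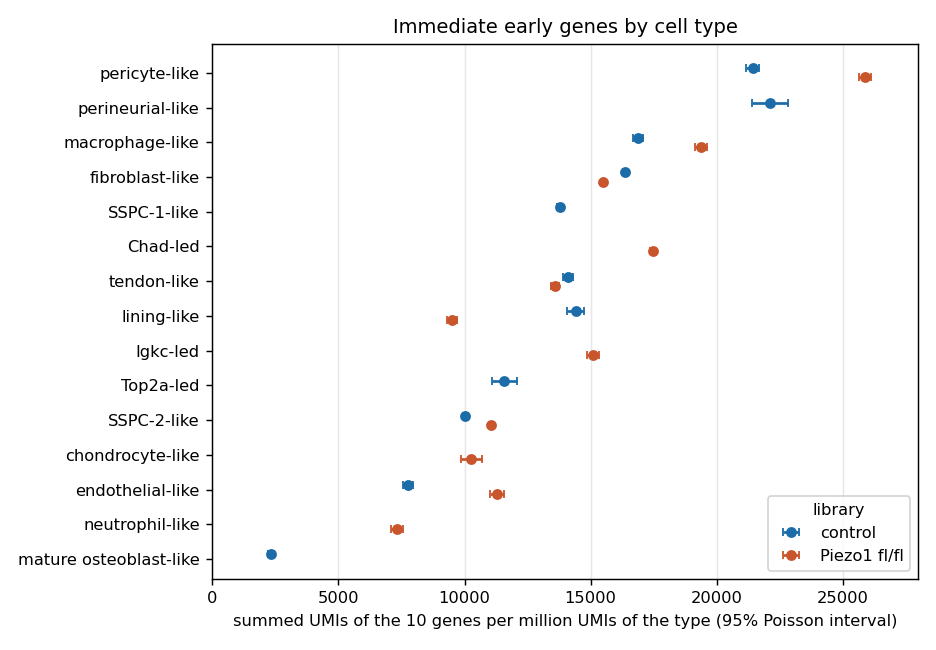
Summed UMIs of the 10 immediate early genes in CPM of each cell type or cluster (horizontal axis, from 0) in the control (blue) and Piezo1 fl/fl (orange) libraries. Bars are exact 95% Poisson intervals of the counting error, and each point is 1 type in 1 library. Pericyte-like cells lie at 21426 and 25878 CPM, and mature osteoblast-like cells at 2329 CPM.

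Pericyte-like cells, contractile mural cells of vessels marked by *Myh11*, *Acta2* and *Rgs5*, stood above the pooled other cells in particular genes rather than in all 10. Of their fixed markers, *Kcnj8* was not among those detected in either library, nor *Abcc9* in that of Piezo1 fl/fl. Pericytes and vascular smooth muscle cells were not told apart, so the name may cover both. *Nr4a1* was at 2772 CPM (2682 to 2863) there and *Atf3* at 966 CPM in the control library, and at 3243 and 1386 CPM in the Piezo1 fl/fl library. Against all other non-blood cells of the same library, *Nr4a1* was higher by 3.12 (3.06 to 3.17) and 3.13 (3.08 to 3.18) on the log2 scale, *Atf3* by 1.69 and 2.20, *Junb* by 1.08 and 1.07 and *Fos* by 0.93 and 1.10. *Klf4* was lower, with log2 ratios of -0.50 and -0.75. *Jun* differed little, with log2 ratios of 0.05 (-0.01 to 0.10) and 0.16 (0.12 to 0.21), and the intervals for *Ier2* contained 0 in both libraries. In the control library 3 of the 10 genes were at least 2-fold higher in pericyte-like cells, where 13.3% of all genes with at least 20 UMIs over both sides were, and in the Piezo1 fl/fl library 4 of 10, beside 12.6%. None was at least 2-fold lower, where 27.7% and 27.9% of all genes were. The pooled comparison hides types with like levels. Control perineurial-like cells had *Nr4a1* at 2228 CPM, *Fos* at 7428 CPM and *Junb* at 2047 CPM, the last above the 1605 CPM of pericyte-like cells. Their *Atf3* was lower, at 291 CPM, while control lining-like and macrophage-like cells had 801 and 789 CPM of it.

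The pericyte-like cells also had the highest mitochondrial share, with a median of 12.2% of UMIs in the control library and 11.9% in that of Piezo1 fl/fl, against 4.90% and 4.80% over all non-blood cells. Among pericyte-like cells under 10% mitochondrial UMIs the summed level was 24161 CPM (99 cells) and 29265 CPM (98 cells), which is higher than in all pericyte-like cells. *Nr4a1* was at 3238 and 3972 CPM in these cells.

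Endothelial-like cells, the other vessel type, had a lower summed level than the pericyte-like cells in both libraries. *Nr4a1* was at 186 CPM in control endothelial-like cells and at 435 CPM in those of the Piezo1 fl/fl library, and *Fos* at 2149 and 3402 CPM. Set against pericyte-like cells, 5 of the 10 genes were at least 2-fold lower in each library, where 16.7% of all genes were in the control library and 15.1% in that of Piezo1 fl/fl. *Klf4*, a gene known for its role in the flow response of endothelium, had log2 ratios of 0.14 (-0.02 to 0.30) and 0.58 (0.42 to 0.74) and did not follow the others. None was at least 2-fold higher, beside 21.7% of all genes in the control library and 20.8% in that of Piezo1 fl/fl.

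Macrophage-like cells held the most *Dusp1* of the named types, at 2095 CPM (2027 to 2165) in the control library and 2082 CPM (2005 to 2162) in that of Piezo1 fl/fl, beside 591 and 672 CPM in all non-blood cells. The log2 ratios were 1.83 (1.77 to 1.88) and 1.63 (1.57 to 1.69). *Atf3* was also higher there, by 1.23 and 1.18 on the log2 scale, so that 2 of the 10 genes were at least 2-fold higher in each library, beside 17.3% and 15.9% of all genes, and none at least 2-fold lower, beside 28.1% and 29.2%. *Egr1* was lower than in the non-blood cells, with log2 ratios of -0.75 and -0.18. The *Igkc*-led cluster of the Piezo1 fl/fl library, which has antigen presentation and immunoglobulin genes, held a like *Dusp1* level of 2108 CPM.

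Fibroblast-like cells had the highest *Klf4* of the control types, at 1705 CPM (1678 to 1731), followed by lining-like cells at 1015 CPM. In the Piezo1 fl/fl library they were at 1270 CPM and not separated from macrophage-like cells at 1284 CPM. At equal depth, with each cell thinned to 2500 UMIs, 86.5% of control fibroblast-like cells had a *Klf4* UMI (interval 84.7 to 88.2, 1494 cells), against 31.8% of SSPC-2-like cells (28.4 to 35.4, 707 cells). Without thinning the shares were 92.99% and 52.8%. The median depths of these types were 4825 and 5981 UMIs per cell, so the type with the lower share was the deeper one.

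Mature osteoblast-like cells, with *Bglap*, *Dmp1* and *Ibsp* among their leading genes, were the lowest control type for each of the 10 genes. *Fos* was at 819 CPM (745 to 899), *Egr1* at 319 CPM, *Dusp1* at 45.6 CPM (25 UMIs) and *Atf3* at 23.7 CPM (13 UMIs). Against SSPC-2-like cells, the log2 ratios were -2.02 for *Fos*, -2.89 for *Egr1*, -3.69 for *Dusp1* and -3.18 for *Atf3*, and 8 of the 10 genes were at least 2-fold lower, beside 17.9% of all genes, and none was 2-fold higher, beside 6.45%. *Klf4* was an exception at -0.22 (-0.52 to 0.06), with 197 and 230 CPM, and *Nr4a1* was at -0.73 (-1.39 to -0.13). These 60 cells had a median of 6765 UMIs, against 4955 over all non-blood control cells, and a median mitochondrial share of 5.82%.

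**Figure D2:**
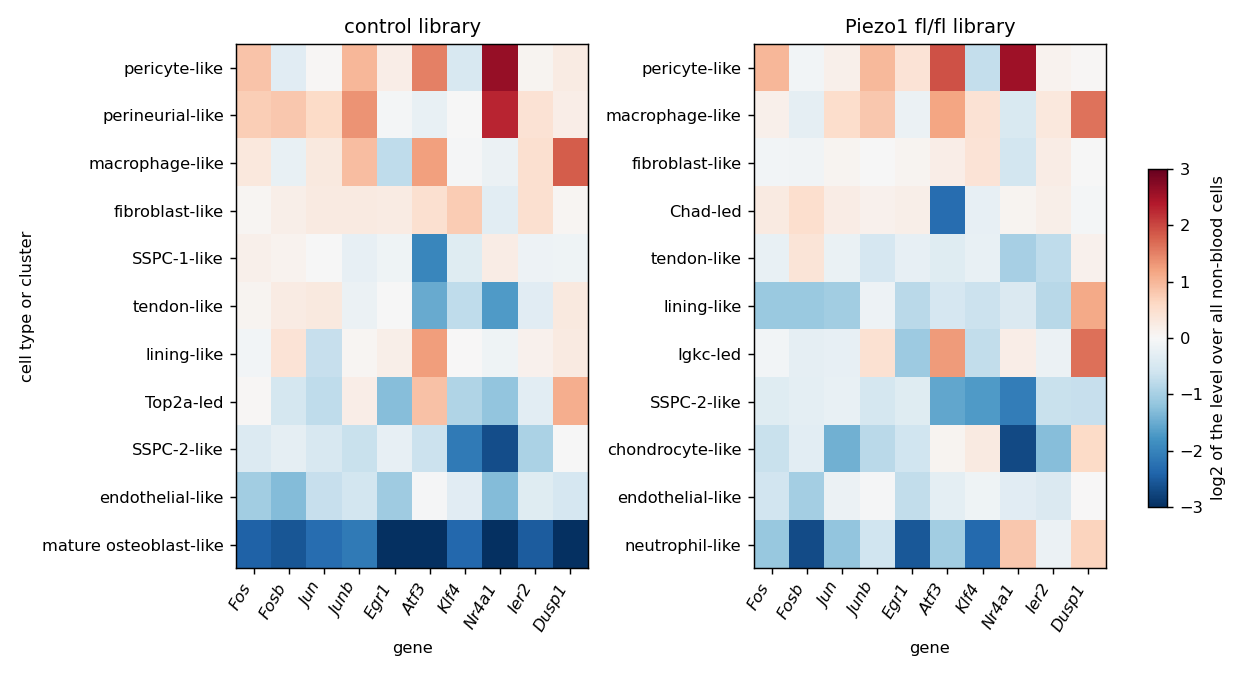
Level of each of the 10 genes (columns) in each cell type or cluster (rows) as log2 of its level over that in all non-blood cells of the same library, with the control library on the left and the Piezo1 fl/fl library on the right. Colours end at 3 in either direction. The *Nr4a1* column is reddest in pericyte-like cells, at 2772 and 3243 CPM, the *Dusp1* column in macrophage-like and *Igkc*-led cells, and the mature osteoblast-like row is blue throughout.

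The progenitor types differed in the make-up of their immediate early genes more than in the sum. SSPC-1-like cells of the control library had 13782 CPM and SSPC-2-like cells 10038 CPM, which is 0.46 on the log2 scale (0.44 to 0.47). The *Chad*-led cluster and the SSPC-2-like cells of the Piezo1 fl/fl library had 17477 and 11066 CPM, a ratio of 0.66 (0.64 to 0.68). *Nr4a1* was at 531 CPM (510 to 552) among the SSPC-1-like control cells against 72.6 CPM (65.5 to 80.2) among the SSPC-2-like cells, which is 2.87 on the log2 scale (2.72 to 3.03). In the Piezo1 fl/fl library it was at 582 and 131 CPM, a ratio of 2.15 (2.00 to 2.30). *Klf4* went the same way, at 779 against 230 CPM in the control library and 806 against 294 CPM in that of Piezo1 fl/fl, with log2 ratios of 1.76 (1.67 to 1.86) and 1.46 (1.35 to 1.56). *Atf3* was lower in the SSPC-1 marker cells, at 86.9 against 214 CPM and at 76.4 against 126 CPM, with ratios of -1.30 (-1.47 to -1.14) and -0.72 (-0.94 to -0.51).

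The AP-1 genes differed less between these progenitors. *Fos* had log2 ratios of 0.55 and 0.64, *Fosb* 0.38 and 0.80, *Jun* 0.48 and 0.43, and *Junb* 0.42 and 0.66. *Egr1* was nearly level in the control library at 0.11 (0.07 to 0.14) and at 0.54 (0.50 to 0.59) in the Piezo1 fl/fl library. *Dusp1* changed side, from -0.12 (-0.19 to -0.04) to 0.63 (0.54 to 0.73). At least 2-fold higher in the SSPC-1 marker cells were 2 of the 10 genes in each library, *Nr4a1* and *Klf4*, beside 15.5% of all genes in the control library and 9.98% in that of Piezo1 fl/fl, and at least 2-fold lower were 1 (*Atf3*) and 0, beside 5.76% and 6.46%. With 10 genes, counts this small are not read as a trait of the set. The median over all genes was itself 0.25 in the control library and 0.12 in that of Piezo1 fl/fl. For the 10 genes the median was 0.45 and 0.65. With the scale set by the median of ratios over genes the summed ratio of the control library was 0.21.

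For *Nr4a1* the share of cells with a UMI had the same order as the level. At 2500 UMIs per cell, 42.8% (39.2 to 46.5) of 719 SSPC-1-like cells had *Nr4a1* and 13.7% (11.3 to 16.5) of 707 SSPC-2-like cells, and without thinning the shares were 51.9% and 29.3%. *Fos* was found in 74.7% and 77.9% (unthinned 81.4% and 86.3%), against the order of its levels, so no order is read from its shares. The thinning left out 78 cells of the SSPC-1-like type and 28 of the SSPC-2-like type that were shallower than this depth. No cell type free of these genes was found that could set a background. In the mature osteoblast-like cells 46.4% (33.0 to 60.3, 56 cells) had a *Fos* UMI and 7.14% (1.98 to 17.3) an *Nr4a1* UMI at that depth, with median depths of 6765 UMIs there and 4955 over all non-blood cells. Barcodes under 500 genes, which were not used, had 12279 CPM (567 barcodes) in the control library and 16938 CPM (685 barcodes) in that of Piezo1 fl/fl, levels near those of the cells.

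Within a type, cells ranged from nearly none to very many of these mRNAs. At 2500 UMIs per cell, control SSPC-1-like cells had a median of 19 UMIs of the 10 genes, with quartiles at 4 and 59.5 and the 5th and 95th percentiles at 1 and 107. Of these cells 39.2% had under 10 UMIs and 30.5% over 50. SSPC-2-like cells had the same median of 19 and quartiles of 5 and 39, but only 13.7% had over 50. In the control library the medians were thus equal, and the types differed in their upper range. This did not hold in the Piezo1 fl/fl library. There the *Chad*-led cluster had a median of 30 with quartiles of 10 and 73, and SSPC-2-like cells a median of 19 with quartiles of 5 and 46. Under 10 UMIs were 24.6% and 35.7% of these cells, and over 50 were 34.7% and 22.5%. Pericyte-like cells had medians of 50 (control) and 60 (Piezo1 fl/fl), and mature osteoblast-like cells a median of 3.

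From cell to cell, *Fos* ran closely with *Egr1* and *Jun* in the progenitors, and less closely with *Klf4* and *Nr4a1*. Over control SSPC-1-like cells, *Fos* and *Egr1* had a rank correlation of 0.81, and *Fos* and *Jun* one of 0.80 (719 cells thinned to equal depth, all of 1 library). In the *Chad*-led cluster the values were 0.73 and 0.74 over 769 cells, and in SSPC-2-like cells 0.74 and 0.71 over 707 control and 0.76 and 0.77 over 493 Piezo1 fl/fl cells. *Fos* with *Klf4* and with *Nr4a1* had 0.43 and 0.52 in control SSPC-1-like cells, and 0.30 and 0.18 in control SSPC-2-like cells. In the latter cells *Klf4* and *Nr4a1* were at 230 and 72.6 CPM, against 3331 CPM for *Fos*. Many thinned cells had no UMI of the rarer genes, and such ties lower a rank correlation by themselves. Whether the weaker values go beyond this was not tested. For *Egr1* and *Jun*, pericyte-like cells had lower values, 0.52 and 0.51 over 248 control cells and 0.50 and 0.59 over 307 Piezo1 fl/fl cells.

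**Figure D3:**
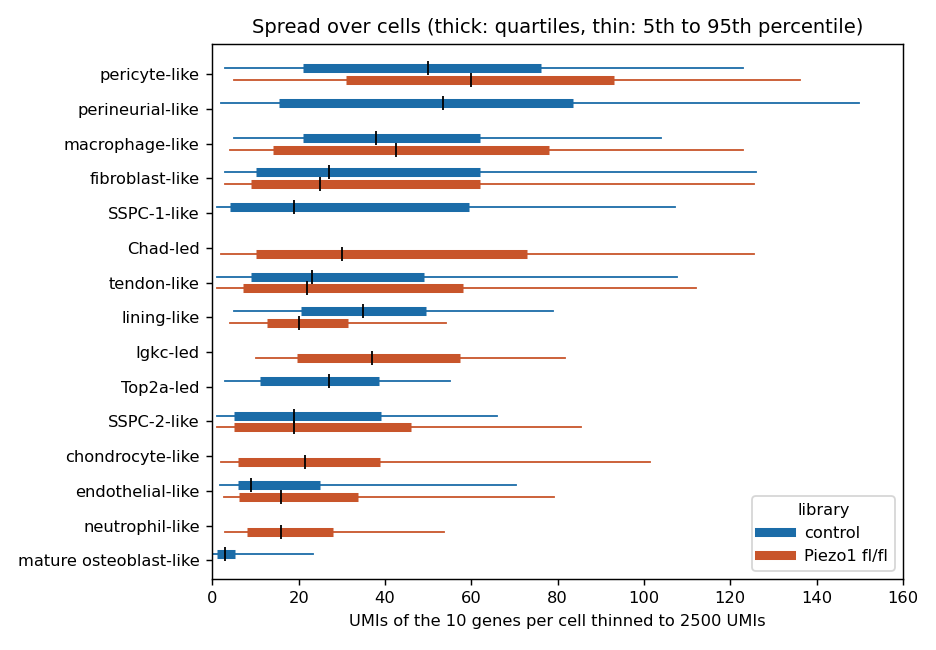
UMIs of the 10 genes per cell after thinning every cell to 2500 UMIs (horizontal axis), by type and library (control blue, Piezo1 fl/fl orange). Thick bars are the quartiles, thin bars run from the 5th to the 95th percentile and the black tick is the median. Pericyte-like cells have medians of 50 and 60, while control SSPC-1-like cells and control SSPC-2-like cells share a median of 19 but differ in their upper quartile, 59.5 and 39.

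The summed level fell with the mitochondrial share of the cells in most types compared, but not in all. Control SSPC-1-like cells in the lowest tertile of mitochondrial share had 17874 CPM, the middle tertile 12970 CPM and the highest 8872 CPM. Control fibroblast-like cells fell likewise, from 19951 over 16389 to 11769 CPM, and the *Chad*-led cluster from 21573 to 14139 CPM. SSPC-2-like, pericyte-like and macrophage-like cells fell in both libraries. The macrophage-like cells went from 19632 to 13447 CPM in the control library and from 24872 to 14316 CPM in that of Piezo1 fl/fl. Fibroblast-like cells of the Piezo1 fl/fl library went the other way, from 13178 over 16471 to 17861 CPM, and so did lining-like cells of that library, from 8078 over 9609 to 11459 CPM. These fibroblast-like cells pool clusters that differ in both measures. The *Ociad2*-led cluster had the lowest median mitochondrial share, 3.53%, with 5087 CPM, and the *Cfd*-led cluster the highest, 4.55%, with 26406 CPM. The tertiles were not taken within clusters. Tendon-like cells had no steady direction, with 15272, 12772 and 13850 CPM in the control library. Control endothelial-like cells rose from 7426 over 7687 to 8180 CPM, and those of the Piezo1 fl/fl library had no steady direction. By total UMIs, SSPC-1-like cells had 13594, 13738 and 13865 CPM from the shallowest to the deepest tertile, SSPC-2-like control cells 7982, 9740 and 10774 CPM, and tendon-like control cells 21153, 14955 and 11637 CPM. The part of RNA quality in the differences between types was not tested.

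The fibroblast-like cells of the Piezo1 fl/fl library fell into 5 clusters that differed several-fold in these genes. The *Ociad2*-led cluster, 369 cells with *Slurp1*, *Crabp2* and *Dpp4* among its leading genes, had 5087 CPM (5006 to 5169), and the *Cfd*-led cluster, 319 cells with the complement genes *C3* and *C4b*, had 26406 CPM (26185 to 26628). The *Myoc*-led (918 cells), *Pi16*-led (246 cells) and *Gdf10*-led (232 cells) clusters had 18320, 15234 and 12228 CPM. Both control clusters, led by *Col2a1* and *Pi16* (833 cells) and by *Apod* (807 cells), lay at 15747 and 17039 CPM.

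In the *Ociad2*-led cluster 9 of the 10 genes were at least 2-fold lower than in the other fibroblast-like cells, beside 12.5% of all genes, and none was 2-fold higher, beside 3.89%. *Fos* was at 1109 CPM and *Egr1* at 571 CPM there, with log2 ratios of -2.42 (-2.47 to -2.37) and -2.59 (-2.66 to -2.52). *Klf4* alone was not lower, at 1370 CPM and a ratio of 0.14 (0.09 to 0.20). The cluster was the deepest of the fibroblast-like clusters, with a median of 6603 UMIs, and had the lowest mitochondrial share, 3.53%. Of the 8 early NF-kB targets 6 were at least 2-fold lower too, with a median of -1.81, while the heat shock list had a median of -0.20 with 2 of 11 past 2-fold, beside a median of -0.07 over all genes. In the *Cfd*-led cluster 7 of the 10 genes were at least 2-fold higher, beside 3.43% of all genes, and none 2-fold lower, beside 10.1%. *Klf4* was again not among them, with a ratio of -0.13 (-0.20 to -0.07). Both clusters lie at the ends of the fibroblast-like clusters in the sum of these same 10 genes, and each is part of the other's comparison. The counts of the 10 genes past 2-fold follow in part from this and only describe the clusters.

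When both libraries were clustered together, the cells with *Ociad2* among the leading genes formed a cluster of 775 Piezo1 fl/fl and 275 control cells. Its summed levels were 9106 and 8599 CPM, a log2 ratio of 0.08 (0.06 to 0.11), and *Klf4* was at 1258 and 1385 CPM. In the other joint fibroblast-like clusters the control cells had between 16991 and 19880 CPM. *Klf4* was at 1437, 2428 and 1303 CPM in the control cells of these, so that the 1385 CPM of the cluster with *Ociad2* lay within their range.

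**Figure D4:**
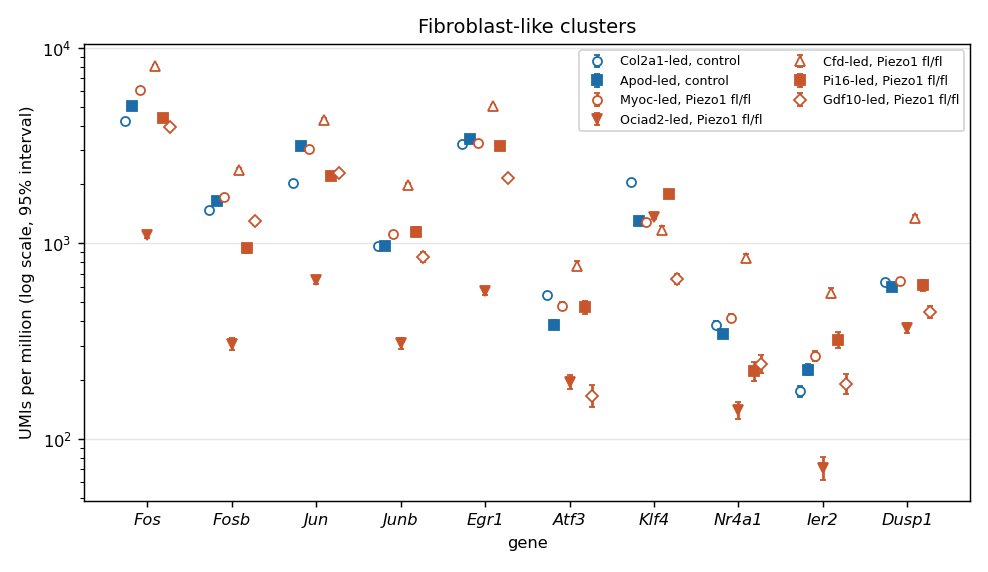
Level of each gene (CPM, log scale) in the 2 control (blue) and 5 Piezo1 fl/fl (orange) fibroblast-like clusters, with exact 95% Poisson intervals. The *Ociad2*-led cluster (downward triangles) lies lowest for most genes, with *Fos* at 1109 CPM, but among the others for *Klf4* at 1370 CPM, and the *Cfd*-led cluster (upward triangles) lies highest for *Fos* at 8068 CPM.

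The libraries differed little when all non-blood cells were summed. *Piezo1* itself had 117 UMIs (4.96 CPM, 4.10 to 5.94) in the control and 57 UMIs (2.20 CPM, 1.67 to 2.85) in the Piezo1 fl/fl library. Counts at the 3′ end do not show whether the floxed exons were deleted. The summed immediate early genes had a log2 ratio of 0.13 (0.12 to 0.14) of Piezo1 fl/fl over control. Of the 10 genes 8 had a positive ratio, from 0.08 for *Fosb* to 0.66 (0.60 to 0.72) for *Ier2*, and *Egr1* and *Klf4* had -0.08 and -0.07. None reached 2-fold, beside 1.98% of all genes at least 2-fold higher and 4.52% at least 2-fold lower. With 1 library a side, a difference between animals, digests or runs cannot be told apart from the genotype.

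By type the differences between libraries went both ways. The SSPC-1 marker cells had a summed ratio of 0.34 (0.33 to 0.36), with *Ier2* at 0.98 (0.83 to 1.13) and *Junb* at 0.74 (0.68 to 0.81), and no gene past 2-fold, beside 2.35% of all genes higher and 5.37% lower. The *Chad*-led cluster of the joint clustering, which held more cells (1070 Piezo1 fl/fl and 844 control), had a ratio of 0.30. SSPC-2-like cells had 0.14 (0.12 to 0.16), beside 4.54% of all genes at least 2-fold higher and 2.17% lower. Pericyte-like cells had 0.27 (0.25 to 0.29), beside 1.56% and 3.01%, and macrophage-like cells 0.20 (0.17 to 0.22), beside 2.22% and 5.82%. The macrophage-like cells were not alike in the libraries, since cells with *Cd74* and *H2-Aa* formed the *Igkc*-led cluster in the Piezo1 fl/fl library only. Clustered jointly, the *Retnla*-led macrophage-like cells had a ratio of 0.31 (0.28 to 0.34; 284 Piezo1 fl/fl and 166 control cells) and the *Cd74*-led ones -0.23 (-0.26 to -0.19; 149 and 225 cells). Fibroblast-like cells had -0.08 (-0.09 to -0.07), beside 1.77% and 3.69%. Their joint clusters went both ways, with ratios of 0.24 (*C4b*-led), 0.08 (the cluster with *Ociad2*), 0.02 (*Pi16*-led) and -0.69 (*Gdf10*-led). In the separate clusterings none of the 10 genes passed 2-fold in SSPC-2-like, pericyte-like, macrophage-like or fibroblast-like cells. In the *Gdf10*-led joint cluster *Atf3* was at 582 CPM in the control and 173 CPM in the Piezo1 fl/fl cells. *Nr4a1* was at 825 and 250 CPM there, so that both were past 2-fold. The share of all genes past 2-fold is not given for the joint clusters. Endothelial-like cells had 0.54 (0.49 to 0.59) and tendon-like cells -0.05 (-0.08 to -0.03). In SSPC-2-like cells the ratio became -0.13 when clusters were cut at resolution 0.8, and -0.02 with doublets kept. In endothelial-like cells 1 of 10 genes, *Nr4a1*, was at least 2-fold higher (186 against 435 CPM), beside 4.18% of all genes (3.90% lower), and in tendon-like cells 1 of 10, *Atf3* (118 against 286 CPM), beside 5.58% (5.32% lower). Neither library's tendon-like cells were the same set in the joint clustering (205 Piezo1 fl/fl and 176 control cells, against 384 and 214), where *Atf3* was no longer past 2-fold, at 121 CPM in the control and 160 CPM in the Piezo1 fl/fl cells (0.41, 0.07 to 0.75).

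Lining-like cells, which carry the joint lubricant gene *Prg4*, had the largest difference among the 8 types compared between the separate clusterings, and it had the opposite sign. The summed level was 14409 CPM in 55 control cells and 9508 CPM in 123 Piezo1 fl/fl cells, a log2 ratio of -0.60 (-0.64 to -0.56). *Atf3* was at 801 and 261 CPM, *Fosb* at 1828 and 673 CPM and *Egr1* at 3142 and 1511 CPM, so that 3 of 10 genes were at least 2-fold lower, beside 2.87% of all genes. *Dusp1* was at 712 CPM in the control and 1471 CPM in the Piezo1 fl/fl cells, the only one of the 10 genes at least 2-fold higher, beside 9.18% of all genes. The heat shock genes were higher in the same cells, at 6351 against 3380 CPM for the whole list, with 4 of 11 past 2-fold and none past it downward. In the joint clustering the ratio was -0.60 with 54 and 122 cells, and differences of that size or above were also found there in the *Gdf10*-led fibroblast-like cluster, at -0.69 (97 control and 219 Piezo1 fl/fl cells), and in neutrophil-like cells, at -0.67 (29 and 90 cells).

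**Figure D5:**
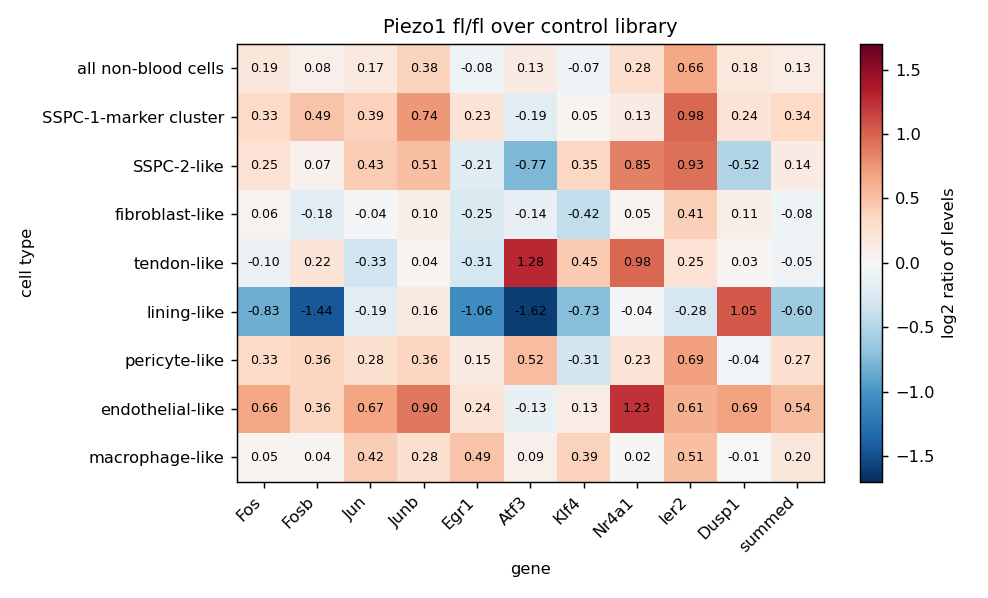
Log2 ratio of the level in the Piezo1 fl/fl library over the control library for each gene and for the 10 summed (columns) in all non-blood cells and 8 cell types (rows), with the value printed in each cell. The first row stays between -0.08 and 0.66, and the lining-like row holds the lowest value, -1.62 for *Atf3*, beside 1.05 for *Dusp1*.

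Related genes were followed as 4 lists. The 28 other immediate early genes summed to 11200 CPM in the control and 12675 CPM in the Piezo1 fl/fl non-blood cells, led by *Zfp36*, a decay factor for cytokine mRNAs, at 2326 and 3119 CPM and *Jund* at 2087 and 2221 CPM. In SSPC-1-like over SSPC-2-like control cells 10 of the 26 measured were at least 2-fold higher and 3 lower, beside 15.5% and 5.76% of all genes. Among them, *Ccn2* (a matricellular target of TGF-beta and YAP) was at 4733 against 588 CPM and *Ccn1* at 1546 against 720 CPM, and in the Piezo1 fl/fl library *Ccn2* was at 6204 against 1244 CPM. Pericyte-like cells had little *Ccn2*, at 405 CPM in the control library.

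Heat shock genes, which respond to unfolded protein, summed to 3164 CPM in control and 3984 CPM in Piezo1 fl/fl non-blood cells. All 11 had a positive ratio between the libraries and none was past 2-fold, with a median of 0.25, beside -0.03 over all genes. *Hspa1b* was at 600 and 892 CPM, *Hspb1* at 243 and 369 CPM, and *Hspa8* at 857 and 1000 CPM. Between the control progenitors the list summed to 2592 CPM in the SSPC-1-like and 2404 CPM in the SSPC-2-like type, with 9 of 11 genes higher and 2 lower. *Hspa1a* was 1 of the lower ones, at 170 and 296 CPM. The median log2 ratio of the list was 0.16, below the 0.25 over all genes, so these counts do not set the list apart.

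The early NF-kB targets differed more between the libraries than the 10 genes did. *Nfkbia*, the inhibitor that NF-kB induces against itself, was at 384 CPM in control and 729 CPM in Piezo1 fl/fl non-blood cells, and *Cxcl2* at 31.9 and 59.4 CPM. The whole list had a median of 0.39, with 8 of 8 positive and none past 2-fold. In the SSPC-1 marker cells its median was 1.48 with 5 of 8 past 2-fold upward, beside 2.35% of all genes. It was 1.98 with 5 of 7 in tendon-like cells, beside 5.58%, and 1.11 with 4 of 7 in SSPC-2-like cells, beside 4.54%. The median was 0.93 in pericyte-like (2 of 7 past 2-fold, beside 1.56%), 0.80 in endothelial-like (3 of 7, beside 4.18%) and 0.46 in macrophage-like cells (1 of 8, beside 2.22%). It was 0.04 in lining-like cells (2 of 7, beside 9.18%) and -0.14 in fibroblast-like cells, with none of 8. *Nfkbia* was at 234 CPM in the control and 765 CPM in the Piezo1 fl/fl SSPC-1 marker cells, and *Cxcl1* at 37.2 and 461 CPM in tendon-like cells. The medians over all genes in these comparisons lay between -0.07 and 0.18. For the ERK feedback genes, which ERK signalling induces, 4 of 10 had a positive ratio over non-blood cells and none was past 2-fold. Its most abundant member *Spred1* was at 148 and 137 CPM, and *Dusp6* at 58.6 and 59.4 CPM. In SSPC-2-like cells 9 of 9 were higher with 3 past 2-fold, and *Dusp6* was at 47.7 CPM in the control library and 124 CPM in that of Piezo1 fl/fl. The types in these list comparisons come from the separate clusterings, and the lists were not compared within the joint clusters. The tendon-like cells of the joint clustering were a different set, and the Piezo1 fl/fl SSPC-2-like cluster held more osteoblast mRNA. The part of such differences in cell make-up in the list ratios was not tested.

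The genes whose levels ran most like the summed 10 genes over the named types were *Jund*, *Zfp706*, *Zfp703*, *Mtfr1l* and *Zfp36*, of which *Jund* and *Zfp36* are also in the list of other immediate early genes. Their mean correlations were 0.89, 0.85, 0.84, 0.83 and 0.81 on the log2 scale, over 10 control and 9 Piezo1 fl/fl types and among 5580 genes. The types of a library share its depth and protocol. *Jund* was at 2266 CPM in pericyte-like and 1586 CPM in SSPC-2-like control cells, and *Zfp36* at 4289 and 1673 CPM.

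In total 28030299 UMIs were read over 6118 barcodes for the control, and 32337308 UMIs over 7469 barcodes for the Piezo1 fl/fl genotype. Both sets had 50 barcode sequences in common. *Xist* was near 0 (2 and 3 UMIs) and *Ddx3y* of the Y chromosome at 146 and 143 CPM in both libraries. By the GENCODE vM21 annotation (GRCm38), *Junb* overlaps *Prdx2*, *Jun* overlaps *Junos*, *Atf3* overlaps *Gm24748* and *Dusp1* overlaps *Ergic1* and *Gm8225* on the other strand, and the annotated *Dusp1* locus also overlaps AC122252.1 and AC122252.4 on its own strand. The strand used in counting is not given in the sources used here, so reads of these pairs may be shared and these 4 genes are uncertain to that extent.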

How the data were processed

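The authors deposited whole-number UMI counts per gene and cell barcode, 1 matrix for each genotype. Per the submitters' processing notes, fastp, UMI-tools, STAR and Seurat 4.0.3 were used. The genome build, annotation and strand of counting are not given in the sources used here. The matrices hold 28030299 (control) and 32337308 (Piezo1 fl/fl) UMIs, and the median retained cell has 4812.5 and 4593.

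From these counts, barcodes were retained that had 1000 to 5000 genes and a mitochondrial share below 25%, as in the study's methods. Doublets were called with Scrublet in scanpy 1.11.5 (expected rate 0.05) among barcodes with at least 500 genes and removed (46 of 5551, 0.829%, and 67 of 6784, 0.988%). Each library was clustered alone in Seurat 5.3.0 under R 4.3.3 (2000 variable features, 20 components, resolution 0.4), leaving out the 10 genes and the lists. Clusters were named where at least 3 fixed markers were detected, and stayed unnamed where the leading genes went against the name. UMIs were summed per type and divided by the type total, in Python 3.11.15 with scipy 1.17.1. Genes with at least 20 UMIs over both sides entered each comparison. There were no replicates, so no tests were made. The ratio and interval functions were tested on simulated data.

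The 10 genes, the marker lists and the 4 related lists (28 other immediate early, 11 heat shock, 10 ERK feedback and 8 early NF-kB genes) were chosen with earlier results of these data known. All 10 genes are named, with the 4 highest genes of each list in control non-blood cells and the 2 with the largest ratio between libraries among those with at least 100 UMIs. The genes most like the 10 are the 5 with the highest mean Pearson correlation over named types, on log2(CPM + 1), among genes reaching 50 CPM. Alternatives changed the cell filters, doublets, resolution, typing, denominator, weighting and scale. Promoters are from RefSeq on GRCm38.p6, where 8 of 10 genes matched, and gene positions from GENCODE vM21, where 31107 of 31253 identifiers matched.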

Additional observations from a re-analysis of the deposited data

Results flagged for a closer look

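In 3 cell types the summed level of the 10 genes differed between the libraries in the direction opposite to that of all non-blood cells, which had a log2 ratio of 0.13 of Piezo1 fl/fl over control. The ratio was -0.077 in fibroblast-like cells, -0.054 in tendon-like cells and -0.60 in lining-like cells. With 1 library for each genotype, the difference between these types was not tested. The lining-like value rests on 55 control and 123 Piezo1 fl/fl cells.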

How the results depend on the processing

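Of 47 ratios of the summed 10 genes under an alternative, 45 kept the sign of the reported value. The 47 include the pericyte-like ratios added after seeing the data. They leave out the fibroblast-like ratio without the *Ociad2*-led cluster, which changed sign. Among the 45, the SSPC-2-like ratio between libraries with joint clustering had an interval that contained 0 (-0.007 to 0.037). The SSPC-1 marker cells over SSPC-2-like cells, 0.46 in the control library and 0.66 in that of Piezo1 fl/fl as log2 ratios, became 0.53 (control) with 500 to 6000 genes per cell, 0.47 and 0.75 under 10% mitochondrial UMIs, 0.50 and 0.80 with doublets kept, 0.39 and 0.87 at resolution 0.8, 0.49 and 0.53 with types from the marker UMIs of each cell, 0.50 and 0.78 with both libraries clustered together, 0.48 (control) without mitochondrial and ribosomal protein UMIs in the total, 0.52 and 0.61 with cells weighted equally, and 0.21 and 0.54 with median-of-ratios size factors. Piezo1 fl/fl over control in all non-blood cells, reported as 0.13, was 0.14, 0.10, 0.18 and 0.16 with the wider gene range, the mitochondrial limit, equal weights and size factors. In the SSPC-1 marker cells, reported as 0.34, it was 0.32 with the wider gene range, 0.31 with the mitochondrial limit, 0.27 with doublets, 0.21 with marker typing, 0.30 with joint clustering, 0.39 with equal weights and 0.41 with size factors. In SSPC-2-like cells, reported as 0.14, it was 0.19 with the wider gene range, 0.030 with the mitochondrial limit, 0.17 with marker typing, 0.015 with joint clustering, 0.16 with the smaller total, 0.29 with equal weights and 0.060 with size factors. It changed sign to -0.023 with doublets kept and to -0.13 at resolution 0.8, and the cause was not tested. The number of the 10 genes past 2-fold between libraries in non-blood cells stayed at 0 wherever it was recomputed.

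Added after seeing the data, pericyte-like over other non-blood cells under 10% mitochondrial UMIs was 0.79 and 0.98, against 0.65 and 0.82, and the fibroblast-like ratio without the *Ociad2*-led cluster was 0.19, against -0.08. The latter removal took low cells from the Piezo1 fl/fl side only, while 275 control cells that joined them in the joint clustering stayed in, so the change of sign follows from its construction. Without the filter on low counts 24.8% of genes passed 2-fold between the libraries in non-blood cells. Thinning took the share of non-blood cells with a *Fos* UMI from 86.1% to 80.7% in the control library and from 89.1% to 84.0% in that of Piezo1 fl/fl. No paired analysis was possible because each genotype had 1 library. The intervals leave out the spread between animals and digests, which these data do not give.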
